A study of Mus musculus with 3 samples.

Results

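The genes described here are 9 secreted chemokines and cytokines and 1 cytokine receptor that fibroblasts are known to make: Ccl2, Ccl7, Ccl5, Cxcl1, Cxcl5, Cxcl12, Il6, Lif, Csf1 and Il1rl1. They are taken from a list of names that uses no measured value as a criterion, and every array probe whose RefSeq accession belongs to 1 of these genes was taken, which gave 15 of the 55681 probes on the array and 10 of the 20660 genes named on it. RNA came from NIH3T3 cells, an immortalized line of mouse embryonic fibroblasts, and was read on 3 one-colour Agilent arrays: confluent cells after 24 h without a compound (None) and after 24 h with AR7 or BMS614, each at 20 μM. AR7 is a small molecule that binds the retinoic acid receptor alpha (RARα) and activates chaperone-mediated autophagy, and BMS614 is a selective RARα antagonist. The question is whether a compound of the first kind leaves the same mark on RNA levels as an antagonist of the same receptor.

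Chemokines are small secreted proteins that draw leukocytes along a gradient by binding G-protein-coupled receptors, and they are divided into CC and CXC families by the spacing of their first cysteines. Fibroblasts release them when serum, growth factors, interleukin-1 or microbial products reach the cell, and NF-κB, C/EBP and AP-1 factors are known to drive several of these genes. Ccl2, Cxcl1 and Il1rl1 were each first cloned as genes that growth factors or serum switch on in 3T3 cells, so this line is a familiar source of their transcripts.

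Each condition has 1 array of 1 cell line, so no difference below has a replicate check and none could be tested. Both compounds were kept in DMSO and the labels give no vehicle for the None cells, so that compound and vehicle cannot be told apart. A signal from a culture also does not separate fewer cells that use a gene from less RNA per cell. The comparisons of AR7 and of BMS614 with None share the None array. The 75th percentile of raw spot intensity was 692 in None, 780.5 with AR7 and 909 with BMS614, and 55.4%, 61.3% and 61.8% of probes were well above background. Signals are therefore given on the log2 scale after background correction and quantile normalization (RMA), beside raw intensities. The error given with a difference is the SD of the same log2 difference over spots of 1 probe, read from 267 probes printed 10 times on each array. For AR7 against None it ran from 0.426 at the lowest signals to 0.049 at the highest, for BMS614 against None from 0.350 to 0.045, and for AR7 against BMS614 from 0.386 to 0.037. This error covers spots on an array and not cultures, labelling or hybridization.

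Ccl2, Ccl7, Ccl5, Cxcl1, Cxcl5, Csf1 and Il1rl1 were read well above background on every array, Il6 and Lif at the edge of detection, and Cxcl12 with AR7 alone. None of the 9 genes measured on all 3 arrays differed 2-fold. Cxcl5, a neutrophil chemokine, differed most among the genes read well above the noise: its signal was higher with AR7 than in None and than with BMS614. Il6 had a numerically larger difference, lower with AR7, at an intensity where repeated spots vary widely.

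**Figure D1:**
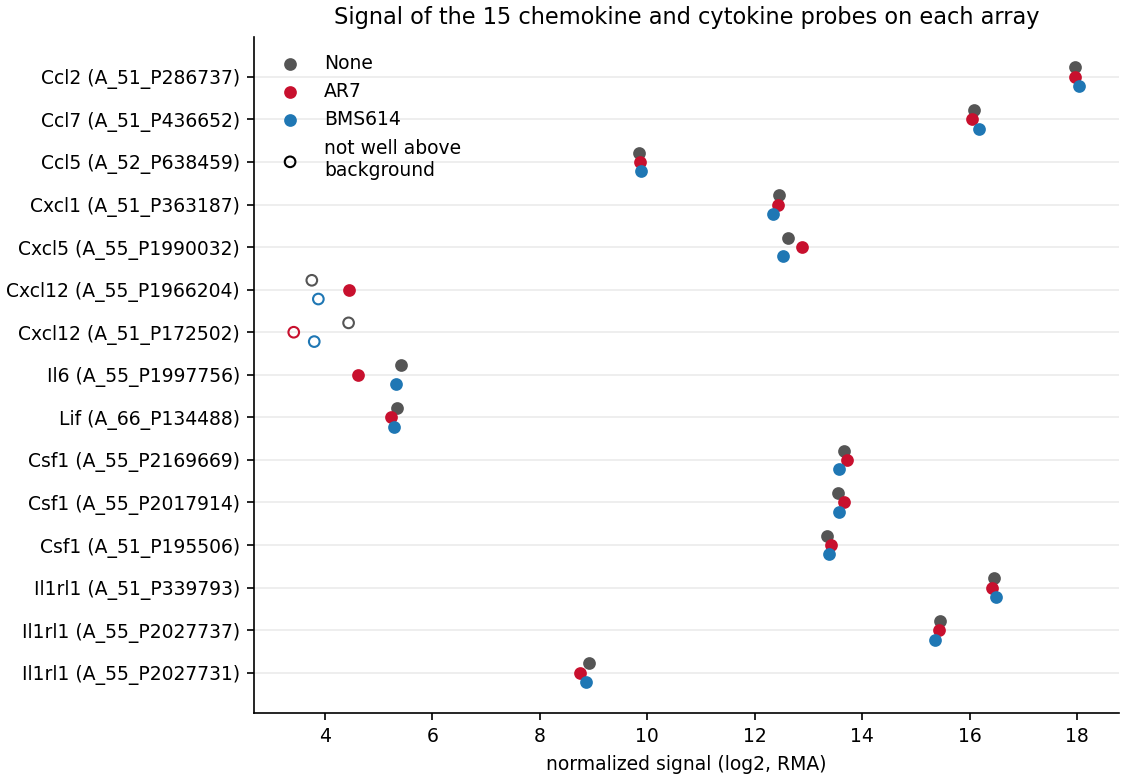
Normalized log2 signal (horizontal axis) of each of the 15 probes (rows) on the 3 arrays, None in grey, AR7 in red and BMS614 in blue, with open circles where the probe was not well above background. The 3 points of a row nearly coincide for Ccl2, Ccl7, Ccl5 and Il1rl1, while Cxcl5 sits at 12.89 with AR7 against 12.62 in None and 12.53 with BMS614. Rows are different probes and their signals are not to be compared with each other.

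Ccl2 (monocyte chemoattractant protein 1), which recruits monocytes through CCR2, was read by probe A_51_P286737 against NM_011333, printed 10 times per array. Its raw intensity was 234206 in None, 251708 with AR7 and 296145 with BMS614, and the normalized log2 signal was 17.95, 17.96 and 18.04. The difference was 0.01 for AR7 against None, or 0.13 SD of repeated spots, and 0.09 for BMS614 against None, or 1.96 SD. Neither was past 2 SD, but this is the SD of 1 spot, which is too wide for a mean over 10 spots. AR7 lay 0.08 below BMS614, which was 2.25 SD. The sign of each of these Ccl2 differences depends on the scaling. Divided by the 75th percentile of its array, the raw intensity was 338 in None, 322 with AR7 and 326 with BMS614, so that None was then the highest of the 3. Under each alternative that scales an array by 1 factor (the 75th percentile, the spike-in controls, the deposited table), BMS614 was 0.09 below None, and no direction can be given for Ccl2.

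Ccl7 (monocyte chemoattractant protein 3) lies next to Ccl2 on chromosome 11 and acts on several CC receptors, CCR2 among them. Probe A_51_P436652 against NM_013654 gave raw intensities of 60272 in None, 65789.4 with AR7 and 84440.2 with BMS614, and log2 signals of 16.07, 16.04 and 16.17. BMS614 was highest and AR7 lowest. BMS614 exceeded None by 0.09, 2.04 SD of repeated spots, and AR7 was 0.12 below BMS614, 3.34 SD, while AR7 and None were 0.03 apart (0.60 SD). The sign of each Ccl7 difference was the same under 5 of 5 other backgrounds, scalings and sources of the values. The excess of BMS614 over None shrank to between 0.04 and 0.06 under the processed signal, 75th percentile scaling, spike-in scaling and the deposited table, and was no longer past 2 SD under the first 3.

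Ccl5 (RANTES), a ligand of CCR1 and CCR3, among others, that draws T cells and monocytes, had a log2 signal of 9.84 in None, 9.86 with AR7 and 9.88 with BMS614 by probe A_52_P638459 against NM_013653. The 3 arrays lay within 0.05 of each other, which is inside the error of repeated spots in every comparison.

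Cxcl1 (KC), which calls neutrophils through CXCR2, was read by probe A_51_P363187 against NM_008176. Raw intensities were 4960, 5491 and 6161 in None, AR7 and BMS614, and log2 signals were 12.45, 12.43 and 12.33. None and AR7 lay together and BMS614 below both. AR7 differed from None by −0.02 (0.34 SD of repeated spots), BMS614 from None by −0.12 (2.29 SD) and AR7 from BMS614 by 0.10 (2.67 SD). These signs held in 5 of 5 other ways of processing. The promoter of Cxcl1 is shown because it carries the NF-κB letters that make this gene a usual readout of that factor. It is the RefSeq window from 250 bases before the transcription start to 50 bases after it (GRCm38.p6, chr5:90890995-90891294, plus strand), with matches to the NF-κB letters (GGG, any 3 bases, then TTCC) on either strand in capitals:
Cxcl1: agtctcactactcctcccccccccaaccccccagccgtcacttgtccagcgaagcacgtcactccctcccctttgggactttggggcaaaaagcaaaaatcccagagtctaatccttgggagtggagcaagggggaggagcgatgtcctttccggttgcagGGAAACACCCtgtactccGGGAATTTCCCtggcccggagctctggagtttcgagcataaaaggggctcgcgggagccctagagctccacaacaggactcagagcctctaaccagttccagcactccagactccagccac
The window held 3 such matches, of which 2 overlap on opposite strands, and 5.56% of 32851 RefSeq mouse promoter windows of this length held at least 1. A match is a run of letters and no measure of binding, and the arrays did not measure it.

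Cxcl5 (LIX), another CXCR2 ligand, was read by probe A_55_P1990032 against NM_009141, with raw intensities of 5558 in None, 7448 with AR7 and 7021 with BMS614. Its log2 signal was 12.62 in None, 12.89 with AR7 and 12.53 with BMS614. AR7 stood above both other arrays, which lay close together. AR7 exceeded None by 0.27, a difference of 20.2% and 4.31 SD of repeated spots. AR7 exceeded BMS614 by 0.36, a difference of 28.1% and 8.02 SD. BMS614 was 0.09 below None, 1.91 SD. Of the 2043 probes within 0.5 log2 units of its signal, 1.91% differed by at least as much between AR7 and None in either direction, 1.47% between AR7 and BMS614, and 36.5% between BMS614 and None. Over 5 other ways of processing, the difference of AR7 ranged from 0.20 to 0.27 against None and from 0.29 to 0.36 against BMS614. Cxcl5 was read by 1 probe, and its neighbour Ppbp, a related CXC chemokine at the edge of detection, read 6.54, 6.22 and 6.13 in None, AR7 and BMS614.

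Cxcl12, the stromal ligand of CXCR4 and ACKR3 that holds blood progenitors in the marrow, had 2 probes and was barely read. Probe A_55_P1966204, against NM_021704, was well above background with AR7 alone, at a raw intensity of 146 against 116 in None and 137 with BMS614. Its log2 signals were 4.44 with AR7, 3.76 in None and 3.88 with BMS614. The bound for AR7 over BMS614 was 1.48-fold. It is taken against the probe's own signal on the BMS614 array, which was above the lowest signal that cleared background there. That is 1.46 SD of repeated spots, and the bound makes no allowance for this error. Against None no bound could be set. Probe A_51_P172502, against NM_001012477, did not clear the background on any of the 3 and was nominally highest in None, at 4.44 against 3.42 with AR7 and 3.80 with BMS614.

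**Figure D2:**
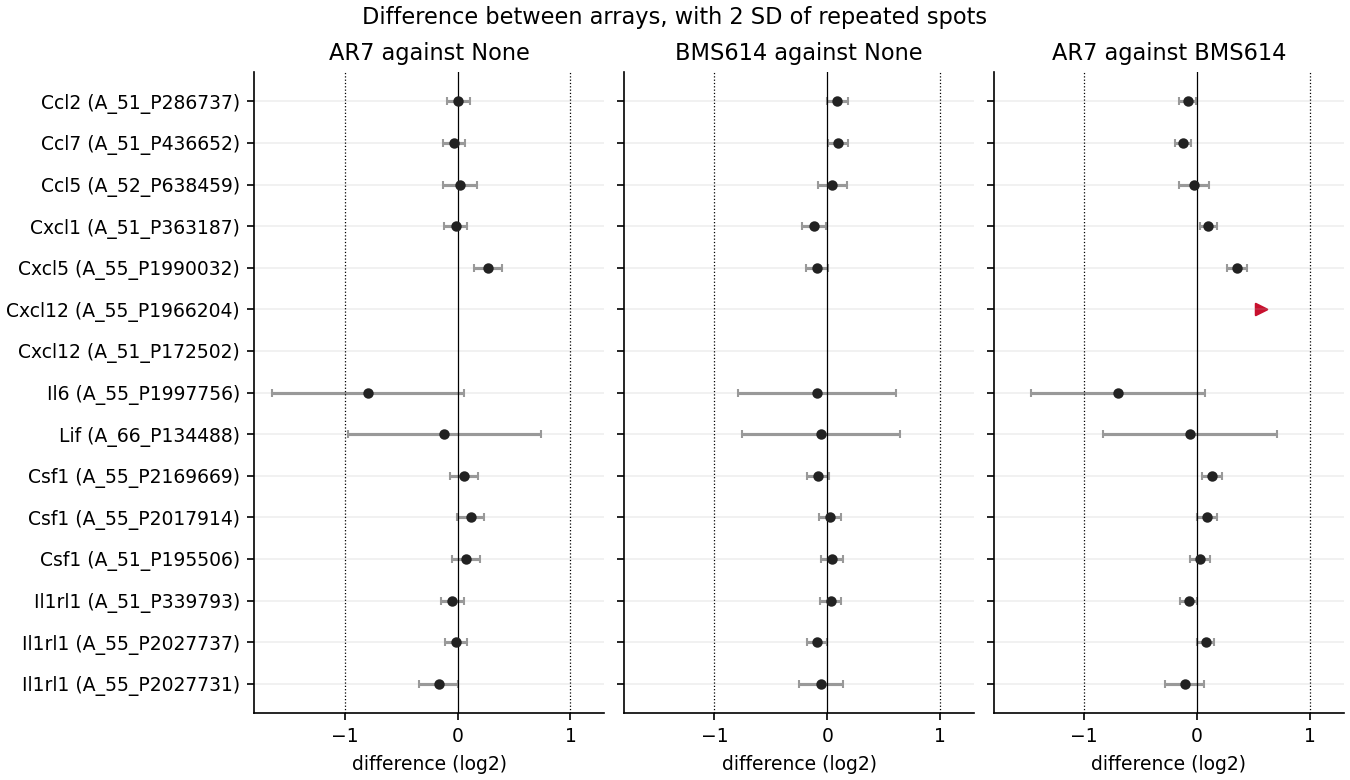
Log2 difference between arrays (horizontal axis, 1 panel per comparison) for each of the 15 probes, with bars of 2 SD of repeated spots at that signal and dotted lines at 2-fold. The red triangle is a lower bound and rows without a point were not measured on both arrays; the Cxcl5 bar clears 0 for AR7 against None and against BMS614, and the Il6 and Lif bars span 0 in all 3 panels.

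Il6, an inflammatory cytokine that signals through IL6RA and the shared subunit gp130 (Il6st), was dim throughout. Probe A_55_P1997756 against NM_031168 is printed 2 times, and its raw intensity was 148.5 in None, 149.75 with AR7 and 176 with BMS614. The log2 signal was 5.41 in None, 4.62 with AR7 and 5.32 with BMS614, so AR7 was lowest after normalization although its raw intensity was level with None. AR7 was 0.80 below None on the log2 scale (0.576-fold) and 0.70 below BMS614 (0.615-fold). These are 1.87 and 1.82 SD of repeated spots, an error of 1 spot that was not reduced for the 2 spots of this probe. At that signal 8.91% of 3390 and 9.73% of 4768 probes differed by as much. BMS614 and None were 0.09 apart (0.27 SD). With the normexp background correction the difference of AR7 from None shrank to −0.23, and its sign was the same in 5 of 5 other ways of processing. The difference from BMS614 was past 2 SD with 75th percentile and spike-in scaling of the RMA values, at −0.78 under either. It shrank to −0.48 with the processed signal, −0.31 in the deposited table and −0.23 with normexp. The Il6 promoter is printed for comparison with Cxcl1, with the same source and marking (chr5:30012864-30013163, plus strand):
Il6: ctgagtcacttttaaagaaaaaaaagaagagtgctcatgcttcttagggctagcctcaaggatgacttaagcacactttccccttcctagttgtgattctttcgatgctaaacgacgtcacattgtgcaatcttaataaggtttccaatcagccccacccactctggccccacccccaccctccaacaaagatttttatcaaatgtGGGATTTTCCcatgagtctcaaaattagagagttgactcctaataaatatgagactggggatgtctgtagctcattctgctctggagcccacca
This window held 1 match to the NF-κB letters, at base −44 from the start, 1 match to the C/EBP letters TTNNGNAAT and 1 to the AP-1 letters TGANTCA, which 11.5% and 7.81% of all promoter windows hold. Both promoters carry NF-κB letters.

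Lif, a cytokine of the IL-6 family that keeps mouse embryonic stem cells undifferentiated, is known to be supplied by fibroblast feeder layers. Its log2 signal by probe A_66_P134488 against NM_008501 was 5.35 in None, 5.23 with AR7 and 5.29 with BMS614. Differences were between −0.12 and −0.06, well inside the error of repeated spots. The sign of both comparisons with None changed with the processing, and that of AR7 against BMS614 was the same in 5 of 5. Of the promoter windows found, that of Lif held no match to the NF-κB letters and 1 to those of AP-1.

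Csf1, the growth factor that macrophages need to survive, was read by 3 probes. The brightest, A_55_P2169669 against NM_001113530, gave 13.66 in None, 13.71 with AR7 and 13.58 with BMS614. AR7 was highest on this probe and BMS614 lowest, with AR7 0.05 above None, BMS614 0.08 below None and AR7 0.14 above BMS614 (3.05 SD of repeated spots). The other probes placed AR7 above None as well, by 0.11 (A_55_P2017914) and 0.07 (A_51_P195506), but both placed BMS614 above None, by 0.03 and 0.04. AR7 exceeded BMS614 by 0.09 and 0.03 on these probes (1.995 and 0.659 SD), the latter turning to −0.0032 in the deposited table. A_51_P195506 is a mean over 10 spots, for which the SD of 1 spot is too wide. The 3 probes gave AR7 above None and, as reported, above BMS614, past 2 SD on the brightest probe alone, while the sign for BMS614 against None was not shared. The Csf1 promoter window held 1 match to the NF-κB letters.

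Il1rl1 (ST2), the receptor for the alarmin IL-33, is made as a membrane form and as a shorter secreted form, which binds IL-33 without signalling. Probe A_51_P339793, against NM_010743, the transcript of the secreted form, read 16.46 in None, 16.41 with AR7 and 16.49 with BMS614, with raw intensities of 79479, 84695.8 and 105258. Probe A_55_P2027737, against NM_001025602, the transcript of the membrane form, read 15.44, 15.43 and 15.35, and the second probe against that transcript, A_55_P2027731, read 8.92, 8.75 and 8.86. The first probe put AR7 0.08 below BMS614 (2.05 SD of repeated spots), and the second put AR7 0.08 above BMS614 (2.08 SD). The third put AR7 below None by 0.17 (2.0 SD) and below BMS614 by 0.11. The probes of Il1rl1 thus disagreed in sign between AR7 and BMS614, and the sign of BMS614 against None on the first probe changed with the scaling. Transcription of Il1rl1 is known to start at 2 separate promoters, with the downstream one used in fibroblasts. Its RefSeq windows are shown because they share none of the NF-κB letters of Cxcl1 and Il6, the upstream at chr1:40429320-40429619 and the downstream at chr1:40439379-40439678 (plus strand), with no capitals since none matched:
Il1rl1 upstream: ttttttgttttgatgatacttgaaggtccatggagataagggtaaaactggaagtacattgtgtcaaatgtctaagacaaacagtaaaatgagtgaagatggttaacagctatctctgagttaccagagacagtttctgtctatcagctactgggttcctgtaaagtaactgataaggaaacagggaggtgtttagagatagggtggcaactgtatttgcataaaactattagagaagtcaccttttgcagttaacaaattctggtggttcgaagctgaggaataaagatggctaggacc
Il1rl1 downstream: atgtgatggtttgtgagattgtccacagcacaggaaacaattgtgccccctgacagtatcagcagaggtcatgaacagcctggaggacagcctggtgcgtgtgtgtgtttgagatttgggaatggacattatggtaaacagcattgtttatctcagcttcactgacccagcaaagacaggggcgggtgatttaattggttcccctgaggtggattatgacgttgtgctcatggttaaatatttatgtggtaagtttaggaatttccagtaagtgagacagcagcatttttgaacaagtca
The downstream window held 2 matches to the C/EBP letters and the upstream window none. Promoter windows were found for 6 of the 10 genes (Csf1, Cxcl1, Cxcl12, Il1rl1, Il6 and Lif), and 3 of these genes held NF-κB letters.

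Between AR7 and None, 9 of the 10 genes were well above background on both arrays by their brightest probe, all but Cxcl12. None of the 9 differed 2-fold, against 1.63% of all probes compared. At 1.5-fold, 1 gene did (Il6), against 6.48% of all probes. Past 2 SD of repeated spots there was 1 gene, Cxcl5, against 17.1% of all probes, and 4 of the 9 were nominally higher with AR7. With the processed signal, 4 genes passed 2 SD (Ccl2, Ccl7 and Il1rl1 besides Cxcl5, all lower with AR7 but Cxcl5), beside 7011 of 30427 probes. With the probes of a gene averaged 3 did (Csf1, Cxcl5 and Il1rl1), where all probes were still taken singly (5213 of 30427). The median difference of the 9 genes as reported was −0.02 beside −0.01 over all probes.

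Between BMS614 and None, the same 9 genes were measured and none differed 2-fold or 1.5-fold, against 1.82% and 7.2% of all probes. Past 2 SD of repeated spots were Ccl7, higher with BMS614, and Cxcl1, lower, that is 2 of 9 against 25.2% of all probes. With 75th percentile or spike-in scaling of the RMA values Cxcl1 alone passed. With the processed signal 3 genes passed (Ccl2, Cxcl1 and Cxcl5, all lower with BMS614), beside 9009 of 30473 probes, and Ccl7 did not. The median difference was −0.06 beside −0.01 over all probes, and 4 of the 9 were nominally higher with BMS614. Ccl2 at 1.96 SD and Cxcl5 at 1.91 SD stood just inside the threshold, and Ccl7 at 2.04 SD just outside it. For Ccl2, a mean over 10 spots, that threshold rests on the error of 1 spot.

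AR7 and BMS614 were given at the same dose and for the same time, and were also compared with each other. None of the 10 genes with a difference or a bound reached 2-fold, against 1.67% of all probes, and Il6 alone reached 1.5-fold, against 7.42%. Past 2 SD of repeated spots were 6 of the 9 measured genes against 23.3% of all probes: Csf1, Cxcl1 and Cxcl5 were higher with AR7, and Ccl2, Ccl7 and Il1rl1 were higher with BMS614. Small differences pass 2 SD more often at bright signals, where all 6 lie. Of all probes whose log2 signal averaged 12 or more, a cutoff chosen after the values were seen, 42.7% were past 2 SD between AR7 and BMS614, 21.5% between AR7 and None and 32.7% between BMS614 and None. Other than Cxcl5, the largest of these 6 differences was 0.14 on the log2 scale, and that was Csf1, past 2 SD on 1 of its 3 probes. The calls of Ccl2 and Il1rl1 also depended on the scaling or the probe, while Ccl7, Cxcl1 and Cxcl5 passed 2 SD in every setting for which that count was made.

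**Figure D3:**
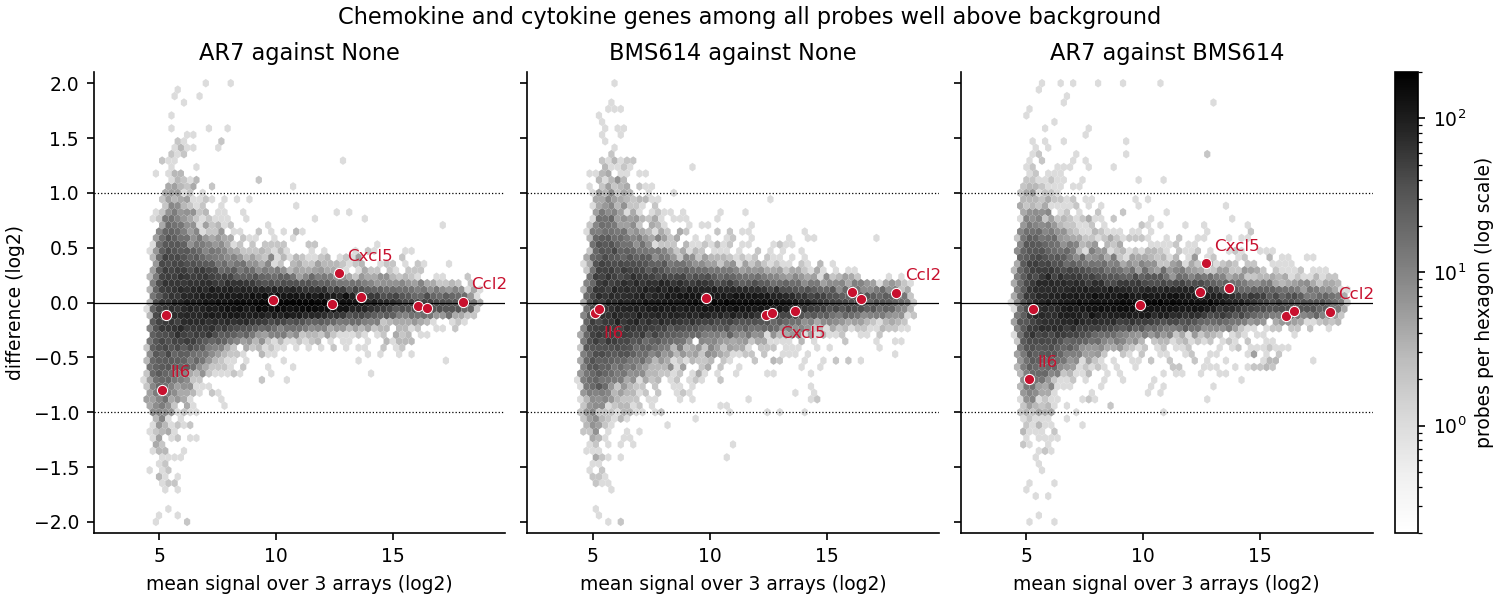
Log2 difference (vertical axis) against mean log2 signal over the 3 arrays (horizontal axis) for the 30290 probes that were well above background in all conditions, as grey hexagons shaded by their number of probes, with the brightest probe of each measured gene in red and dotted lines at 2-fold. Values beyond 2 log2 units (5, 4 and 6 probes from left to right) are drawn at the edge. Il6 lies inside the wide scatter of dim probes, and Cxcl5 lies at the upper rim of its signal range in the panels of AR7.

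Because small differences at bright signals move with the scaling, each gene was followed through the other ways of processing. Ccl7, Cxcl1, Cxcl5 and Csf1 (brightest probe) had the same sign in all 3 comparisons under the 5 alternatives that can alter the value of a probe that was kept. Ccl2, Il6, Lif and Il1rl1 changed sign in at least 1 comparison, and Ccl5 did so for AR7 against None, where its difference was 0.02.

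**Figure D4:**
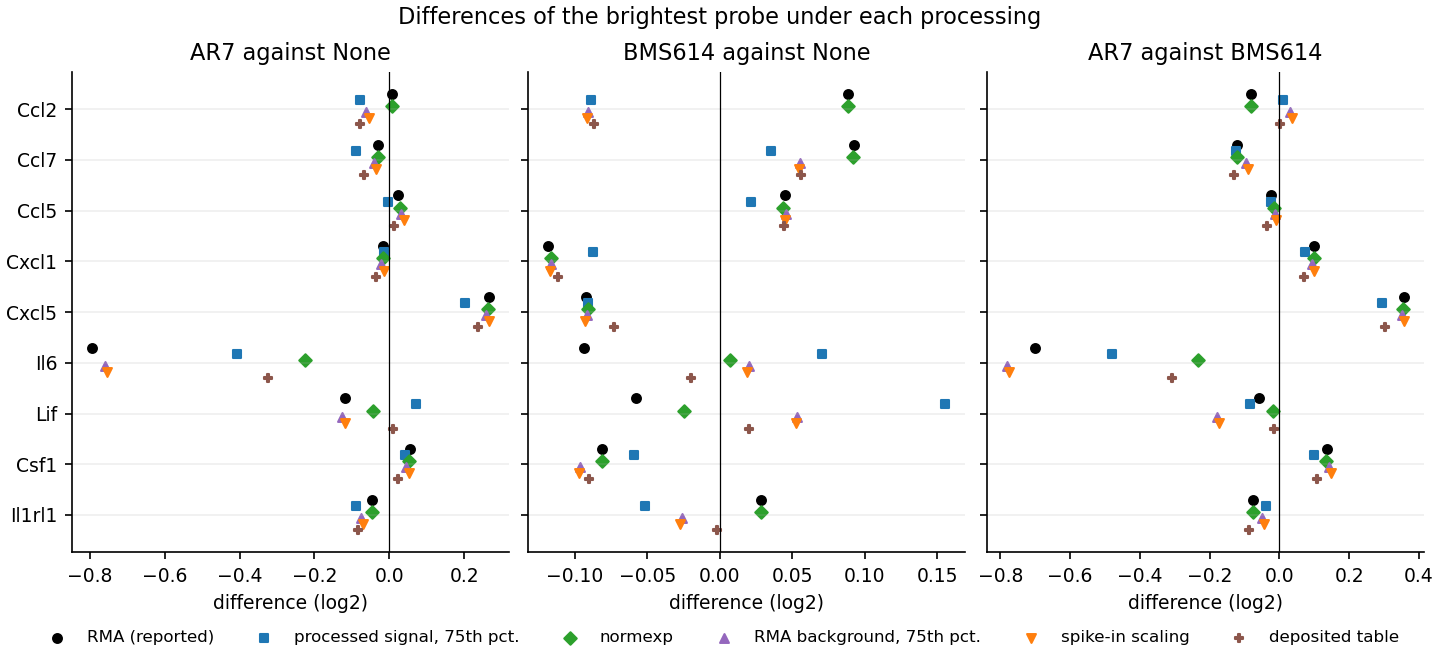
Log2 difference (horizontal axis, a separate range in each panel) of the brightest probe of the 9 measured genes under RMA as reported and 5 other ways to scale or source the values (symbols). Spike-in values are relative to the median of all probes. The Cxcl5 symbols stay between 0.20 and 0.36 in the panels of AR7, and the Ccl2 symbols lie on both sides of 0 in each panel.

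The receptors of these ligands were looked at next, as a list of 15 genes that also holds the Il1rl1 ligand Il33. On none of the arrays were 7 of them well above background, among them the leukocyte chemokine receptors Ccr1, Ccr2, Cxcr2 and Cxcr4, the atypical receptor Ackr1 and the alarmin Il33. Well above background on all 3 arrays were 6 genes: Ccr3, Ackr3, Il6ra, Il6st, Lifr and Csf1r. Ackr3, a scavenging receptor of Cxcl12, read 14.19 in None, 13.99 with AR7 and 14.17 with BMS614, so that AR7 was 0.19 below None (3.94 SD of repeated spots) and BMS614 level with it. Il6st, the signalling subunit that Il6 and Lif share, differed from None by 0.06 with AR7 and −0.05 with BMS614, and Il6ra by 0.00 and −0.09. Lifr, which binds Lif, read 10.04, 10.42 and 10.43 in None, AR7 and BMS614 by its brightest probe, 0.38 and 0.39 above None (4.92 and 6.0 SD), while its other 2 probes lay between −0.07 and 0.04, so the probes disagreed. Csf1r, the Csf1 receptor of macrophages, was 0.09 below None with AR7 and 0.19 below with BMS614 (3.76 SD). Ccr3, near background, differed from None by −0.02 and −0.38 (1.09 SD). Il1rap, the partner chain of ST2, was read in None at 5.19 and with BMS614 at 4.67 but not with AR7. Its bound with AR7 was 0.89 below None (2.09 SD), which the count below leaves out. Ackr2 was read with BMS614 alone. Past 2 SD against None were Lifr, on 1 of its 3 probes, and Ackr3 for AR7, that is 2 of 6 receptors beside 17.1% of all probes, and Lifr and Csf1r for BMS614, 2 of 7 beside 25.2%.

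Of the other chemokines, 28 of 29 had a probe (Cxcl11 was not matched), 20 were well above background on no array and 7 on all 3, so most chemokine genes outside the 10 were not read in these cells. The brightest were Ccl8, with differences from None of 0.04 for AR7 and −0.08 for BMS614, and Ccl25, with −0.01 and 0.07. The second probe of Ccl25, measured for BMS614 against None alone, gave −0.51, so its probes disagreed. Ccl9, a CCR1 ligand, was 0.32 below None with AR7 (3.74 SD of repeated spots) and 0.03 below with BMS614. Cxcl10, the interferon-inducible CXCR3 ligand, was 0.14 below None with AR7 (1.67 SD) and 0.24 below with BMS614 (2.5 SD). These were the only chemokines of the list past 2 SD against None by their brightest probe, 1 of 7 measured in each comparison, beside 17.1% and 25.2% of all probes. Ccl11 (eotaxin), which follows Ccl7 on chromosome 11, was well above background with BMS614 alone, at least 1.06 log2 units above AR7. The list medians were −0.07 for AR7 and −0.03 for BMS614.

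Of 21 other cytokines, 12 were well above background on all 3 arrays and 7 on none, among them the classic inducers of chemokine genes Il1a, Il1b and Tnf. Mif, a broadly made cytokine and the brightest of the list, differed from None by 0.04 with AR7 and −0.03 with BMS614, and Il34, the other ligand of Csf1r and the next brightest, by −0.15 (2.66 SD) and −0.14 (2.20 SD). Kitl (stem cell factor) was 0.30 below None with BMS614 (4.59 SD of repeated spots) and 0.02 below with AR7. At dim signals, Il15 was 0.80 below None with AR7 (1.89 SD). Tslp was 0.73 below None with BMS614 (2.08 SD). With AR7 it was not well above background, with a bound of 1.48 below None (3.48 SD). Osm, which neighbours Lif on chromosome 11, was 0.63 higher with AR7 than with BMS614 (1.64 SD). The medians of the measured cytokines were −0.02 and −0.14, with 0 past 2 SD upward and 2 of 12 downward for AR7, and 0 and 3 of 13 for BMS614. Those shares, 16.7% and 23.1%, are close to the 17.1% and 25.2% of all probes.

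The NF-κB pathway, read as 28 subunits, inhibitors, kinases, adaptors and receptors, was well above background for all 28 genes on all arrays. Its medians were −0.005 for AR7 and −0.05 for BMS614 against None. Past 2 SD of repeated spots, 3 genes were higher and 2 lower with AR7, and 1 was higher and 2 lower with BMS614. That is 17.9% and 10.7% of the list beside 17.1% and 25.2% of all probes. Nfkbia, the inhibitor that NF-κB itself induces and the brightest of the list, differed by −0.03 and −0.06, and Rela, a subunit that activates transcription, by 0.11 (2.25 SD) and −0.04. Bcl3, an atypical IκB protein, was 0.19 below None with AR7 and 0.22 below with BMS614 (3.81 and 4.83 SD). Ikbkg (NEMO), the regulatory subunit of the IκB kinase, read 8.91 in None, 9.50 with AR7 and 8.86 with BMS614. By brightest probes it was the 1 gene of the list past 1.5-fold, 0.59 above None (7.0 SD) and 0.64 above BMS614, and its second probe gave 0.53 and 0.50. Among second probes of other genes, that of Traf2 was 1.06 above None with AR7 and 0.59 above BMS614, where its brightest probe gave 0.03 and 0.23, and that of Irak4 was 0.60 below None with AR7, where its brightest gave 0.02. Ikbkg overlaps G6pdx and Fam3a in the gene table. Those genes differed between AR7 and None by 0.06 and 0.10.

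The JAK-STAT3 pathway, through which Il6 and Lif signal, was read for 17 of 19 genes on all 3 arrays, with medians of −0.02 for AR7 and −0.06 for BMS614. Past 2 SD of repeated spots, 1 gene was higher and 2 lower with AR7, and 0 were higher and 5 lower with BMS614, the latter being Tyk2, Stat5b, Socs3, Cebpd and Il11ra1. That is 17.6% and 29.4% of the genes measured beside 17.1% and 25.2% of all probes, and the second probe of Stat5b was 0.11 above None with BMS614. Tyk2, a Janus kinase, was 0.38 below None with BMS614 (3.93 SD) and 0.01 below with AR7. Cebpb and Cebpd, transcription factors that act on Il6 and the brightest of the list, differed from None by 0.05 and −0.16 with AR7 and by −0.05 and −0.11 with BMS614. Socs3, the feedback inhibitor of gp130 signalling, was 0.11 below None with either compound (1.76 and 2.21 SD). Pim1, near background, was 0.60 below None with BMS614 (1.72 SD). Pias3 was well above background with BMS614 alone.

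Of 9 genes whose proteins bind or cut unstable cytokine transcripts, all were well above background, with medians of 0.02 for both compounds. Zfp36l2, which promotes decay of transcripts with AU-rich elements, was 0.15 above None with AR7 and 0.09 above with BMS614 (3.01 and 2.05 SD of repeated spots), and Zfp36l1, its close relative and the brightest of the list, differed by −0.03 and 0.01. Rc3h1 (Roquin), which binds stem loops, was 0.21 and 0.15 above None (3.62 and 2.30 SD), while its second probe gave −0.04 and 0.10. By brightest probes no gene of the list passed 2 SD downward against None, but Khsrp, at −0.10 and −0.09 (1.94 and 1.998 SD), was near it, and its second probe gave −0.49 and −0.57.

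**Figure D5:**
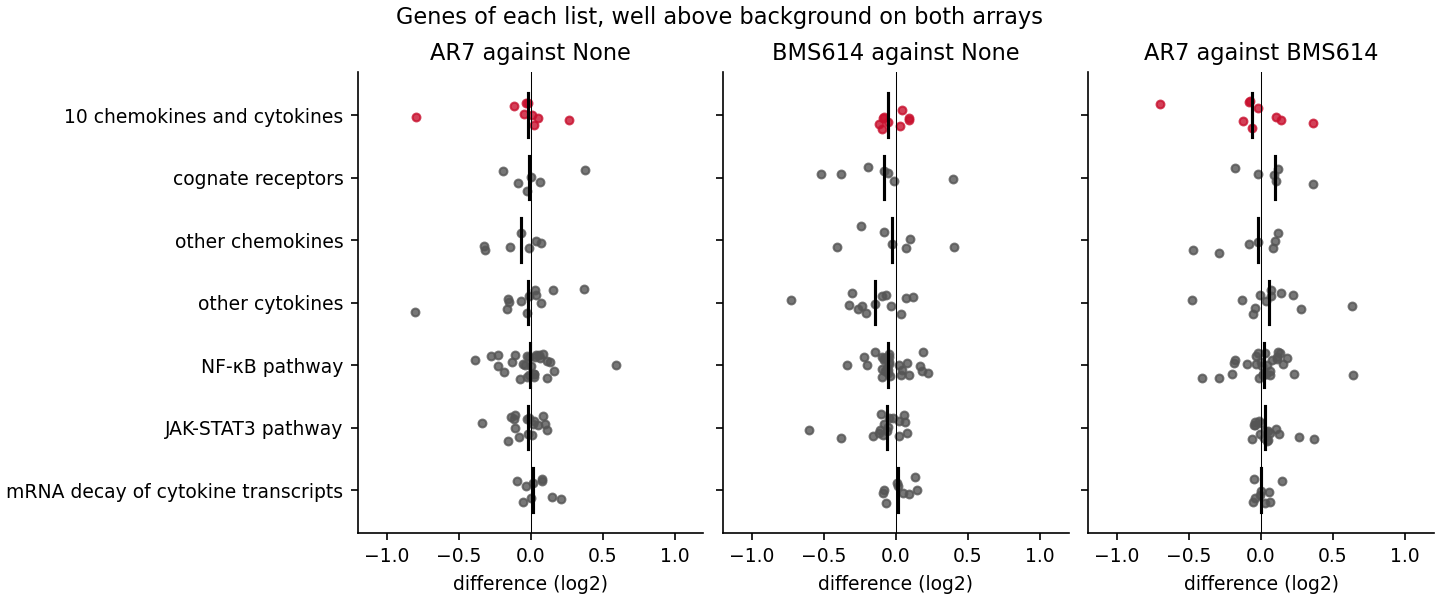
Log2 difference (horizontal axis, 1 panel per comparison) of the brightest probe of each gene well above background on both arrays, with a vertical bar at the median of each row. In red are 9 of the 10 chemokines and cytokines, all but Cxcl12, and in grey 6 gene lists. Medians lie between −0.14 and 0.10, and the red points other than Il6 and Cxcl5 lie between −0.12 and 0.14.

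The fibroblast markers that the label calls for were read at unlike levels. All 10 were well above background on each array, with a summed raw intensity of 723543 in None, 784019 with AR7 and 927363 with BMS614. Col1a2, Vim and Fn1 were among the brightest. Col3a1 was at the edge of detection, at 5.57 in None, 5.23 with AR7 and 5.28 with BMS614. Of the leukocyte markers, 9 of 10 had a probe. Of these, 6 were well above background in None and 8 with each compound, and the summed raw intensity was 25807.8, 29674.6 and 28525.6. The defining B cell marker Ms4a1 was well above background on no array and the leukocyte antigen Ptprc not in None, where it read 4.11 against 4.82 with AR7 and 4.67 with BMS614. Endothelial markers numbered 3, 4 and 3 of 5 (Tek on no array) and epithelial markers 3 of 5 on each array (Epcam and Krt18 on none). Whether leukocyte RNA had a part in the values of Cxcl5 or Ccl7 was not tested.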

How the data were processed

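The authors deposited the scanner intensity of every spot of each one-colour Agilent array, with no normalization across arrays, together with 1 table of processed intensities. Each column of that table is a straight line on the background-subtracted intensity of its array, with column medians of 65.0 (None), 70.7 (AR7) and 67.5 (BMS614) and no stated scaling. It served as an alternative. The submitters' processing notes name oligo and RMA, with no versions. Here the RMA background was computed on median spot intensities without oligo, then quantile normalization over the 3 arrays and log2, with R 4.3.3 and limma 3.58.1, then Python 3.11.15, numpy 2.4.6, pandas 2.3.3 and matplotlib 3.10.9. Control and outlier-marked spots were dropped, and no spot of the 15 probes was marked or saturated. Spots of a probe were averaged, and the probe with the highest mean signal stands for a gene.

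RefSeq accessions matched to a GRCm38.p6 gene table named 27235 probes (20660 genes). Which genes neighbour or overlap each other was read from that table, no coordinate of it is printed, and promoter windows come from RefSeq on the same build. A probe well above background on 1 array of a pair has a bound, against the higher of its own signal on the dim array and the lowest signal that cleared background there. Differences were counted at 2-fold, and at 2 SD of repeated spots in 10 signal bins. No p-value can be had from 1 array per condition, and the number of arrays limits the precision. All 3 arrays lie on 1 slide. The counting was tested on simulated data.

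The genes, the 6 gene lists and the marker lists were chosen with earlier results of these data known. Named from the lists are genes past 1.5-fold on both arrays, the 2 brightest of each list and all receptors, while Ccl9, Cxcl10, Kitl, Bcl3, Tyk2, Stat5b, Socs3, Il11ra1, Rc3h1, Khsrp, Traf2, Irak4, Ccl11, Pias3 and Ppbp were named after their values were seen. Alternatives were the scanner's processed signal at its 75th percentile, normexp with an offset of 50, 75th percentile and spike-in scaling of RMA values, the deposited table (values below 16 set to 16), 2 other filters on dim probes, outlier spots kept, the mean over probes, and thresholds of 1.5-fold, 3-fold and 3 SD. Counts and medians of the lists include some genes that are not reported here. Arrays of CA39 and CA77 were not analysed here.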

Additional observations from a re-analysis of the deposited data

How the results depend on the processing

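Over the counts and medians of the 3 comparisons, 75 values under an alternative stayed close to the reported one and 12 moved. Of 195 differences of single probes under the 5 alternatives that can alter a kept probe, 169 stayed, 22 moved and 4 reversed. Both filters on dim probes and the outlier setting left all 117 values as they were. Only a difference past 2 SD as reported could count as reversed, so sign changes of smaller ones are among those that stayed or moved. All 4 counted as reversed were for Ccl2 between AR7 and BMS614: −0.08 became 0.0103 with the processed signal at its 75th percentile, 0.0295 with RMA at the 75th percentile, 0.0347 when scaled on spike-ins and 0.0027 by the deposited table. Under the same 4 alternatives Ccl2 also changed sign for BMS614 against None, from 0.0887 to between −0.0916 and −0.0868. For AR7 against None it went from 0.0065 to between −0.079 and −0.0544. At 1.5-fold in place of 2-fold, 1 gene passed for AR7 against None and 1 for AR7 against BMS614, beside 6.48% and 7.42% of all probes. At 3 SD in place of 2 SD, 0 genes passed for BMS614 against None and 3 for AR7 against BMS614. Past 2 SD for AR7 against None were 4 genes with the processed signal, beside 7011 of 30427 probes, and 3 with a gene's probes averaged, beside 5213 of 30427 single probes. For BMS614 against None it was 1 gene with RMA at the 75th percentile and 1 with spike-in scaling, beside 7957 and 7969 of 30473 probes. The median for BMS614 against None moved to −0.0031 with the processed signal and to 0.007 with normexp, and that for AR7 against BMS614 to −0.0141 with RMA at the 75th percentile and −0.0088 with spike-in scaling. The cause was not tested. Spike-in scaling on 270 spots moved the median of all probes by 0.19 for AR7 and 0.34 for BMS614 against None, and by −0.15 for AR7 against BMS614, and values are relative to it.

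The mean spot intensity was not run, as the files used here give medians, which also stand in for it in normexp. The deposited table has no repeated spots, so no count past 2 SD was made from it. No paired analysis was possible because a condition has a single array, none was left out, and the slide shared by all 3 was no block. Dim signals limit Il6, Lif and Cxcl12.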

Other observations

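Some markers of other cell types were bright in these fibroblasts. Itgam, an integrin subunit of myeloid cells, read 14.66 in None, 14.72 with AR7 and 14.39 with BMS614, and Kdr, a VEGF receptor of endothelium, read 13.24, 13.23 and 13.09. Itgam was 0.27 below None with BMS614 by this probe (6.02 SD of repeated spots), while its other 2 probes were above None by 0.08 and 0.29. Among fibroblast markers, Col1a1, a chain of type I collagen, was 0.25 above None with BMS614 (5.45 SD) and 0.08 above with AR7 (1.57 SD). Thy1 went the other way, 0.11 below None with BMS614 (2.35 SD) and 0.23 below with AR7 (3.77 SD). Of the 10 fibroblast markers, 3 were higher and 1 lower past 2 SD with BMS614, and 1 higher and 1 lower with AR7. That is 40% and 20% beside 25.2% and 17.1% of all probes. These genes were named after their values were seen.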
